A study of Tachycineta bicolor with 12 samples.

Results

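The membrane skeleton of the tree swallow (*Tachycineta bicolor*) was described from 29 of 14908 protein-coding segments. These were all rows whose protein name contained 1 of 9 phrases for spectrin alpha or beta chains, ankyrin-1 (ANK1), ankyrin-2 (ANK2), ankyrin-3 (ANK3), the band 3 anion transporter (SLC4A1), protein 4.1 (EPB41), its band 4.1-like relatives (EPB41L) and microtubule-actin cross-linking factor 1 (MACF1). The set was put together around ANK1 and MACF1, which rank 4 and 5 among all segments in blood, with the tissue levels of these data in view, so the levels below are descriptions. The 29 segments carry 19 protein names, and 6 names have several segments, which are marked a to d here. Segments of 1 name come from the same assembled locus and can share reads, so they are not independent of each other.

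RNA came from trunk blood, brain, pectoral muscle, spleen, ovary and liver of wild adult females. For each tissue, RNA of 2 females, 1 caught during territory establishment and 1 during incubation, was combined into 1 pool, and the pool was sequenced on a NextSeq and on a MiSeq (12 libraries). The birds had no treatment, and every pool had the same sex and the same mix of 2 stages, which cannot be told apart. With 1 pool per tissue there is no biological replicate: no test between tissues was run, and the error given is the spread between the 2 libraries of a pool together with the counting error of an exact Poisson interval at 95%. Levels are in CPM, the counts of both libraries summed and given per 1000000 counts of the tissue. Totals ranged from 16496225 to 42803056 summed counts, of which the MiSeq libraries gave 1011108 to 2004444. The table holds no segment lengths, so a level is compared between tissues for 1 gene and not between genes. A pool of whole tissue cannot tell fewer cells of a type from less RNA per cell.

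Spectrin is a long flexible protein whose alpha and beta chains pair and then join end to end into tetramers, which actin filaments and protein 4.1 tie into a net under the plasma membrane. Ankyrins fasten that net to membrane proteins, in red cells to band 3, which exchanges chloride for bicarbonate. Avian red cells keep their nucleus and circulate with transcripts of these proteins, while neurons use other paralogs of the same families to hold sodium channels and adhesion molecules in place along the axon, and muscle uses them at the surface membrane and around the myofibrils. MACF1, a large protein that carries spectrin repeats and links actin filaments to microtubules, belongs to the plakins.

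Most marker genes followed the tissue labels. Hemoglobin beta reached 273157 CPM in blood and 223 to 1249 CPM in the other tissues, and the neuronal SNAP25 reached 1253 CPM in brain and at most 1.37 CPM elsewhere. Brain led 4 of 5 neuronal markers, and the exception was neurofilament light, with 167 CPM in blood and 217 CPM in brain, which blood led under TMM scaling (a rescaling of the tissues by trimmed mean of M values). The muscle actin ACTA1 reached 6800 CPM in muscle and at most 15.0 CPM elsewhere, the leukocyte antigen PTPRC was highest in spleen at 2248 CPM, the egg coat protein ZP2 in ovary at 1242 CPM and albumin in liver at 75986 CPM. Blood also held thrombocyte transcripts (445 CPM summed over 4 markers, with glycoprotein Ib at 265 CPM), and spleen held albumin at 828 CPM. Their part in the levels of the membrane skeleton was not tested.

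Most segments of the membrane skeleton were highest in brain (13 of 28, background 24.9% of 14561 segments) or blood (8, background 8.89%). A further 3 were highest in spleen (background 23.7%), 3 in ovary (background 32.1%), 1 in liver (background 6.23%) and 0 in muscle (background 4.11%). Under TMM scaling 1 segment was highest in muscle. A segment was called led by a tissue where its level there, with 1 CPM added, was at least 2-fold that of the highest other tissue. Of the 28 segments that reached 1 CPM in some tissue, 7 were led by blood, against a background of 3.91% of 14561 segments. The 7 include ANK1 and MACF1, around which the set was put together, so this count is partly fixed by that choice. The same holds for the other counts of segments or proteins led by blood or highest in blood. Brain led 11, against a background of 13.2%, ovary 1 (background 13.6%), spleen 1 (background 8.21%), and muscle and liver 0 (background 2.18% and 3.85%). Under TMM scaling blood led 8 (background 12.5%) and brain 11 (background 11.2%). With segments of 1 name summed, blood led 6 of 18 proteins (background 3.66%) and brain 6 (background 13.5%). At least 1 CPM was reached by 16 of the 29 segments in blood, 28 in brain and 18 in muscle, against backgrounds of 57.7%, 87.7% and 61.2% of all segments. The one segment left out, an ankyrin-3-like segment, reached at most 0.363 CPM, in ovary. Together the 29 segments took 2.32% of all counts in blood and 0.799% in brain, and between 0.0537% and 0.179% in muscle, spleen, ovary and liver. In blood ANK1 alone took 0.953% and MACF1 0.625%, so that sum is largely fixed by the choice of the set.

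**Figure D1:**
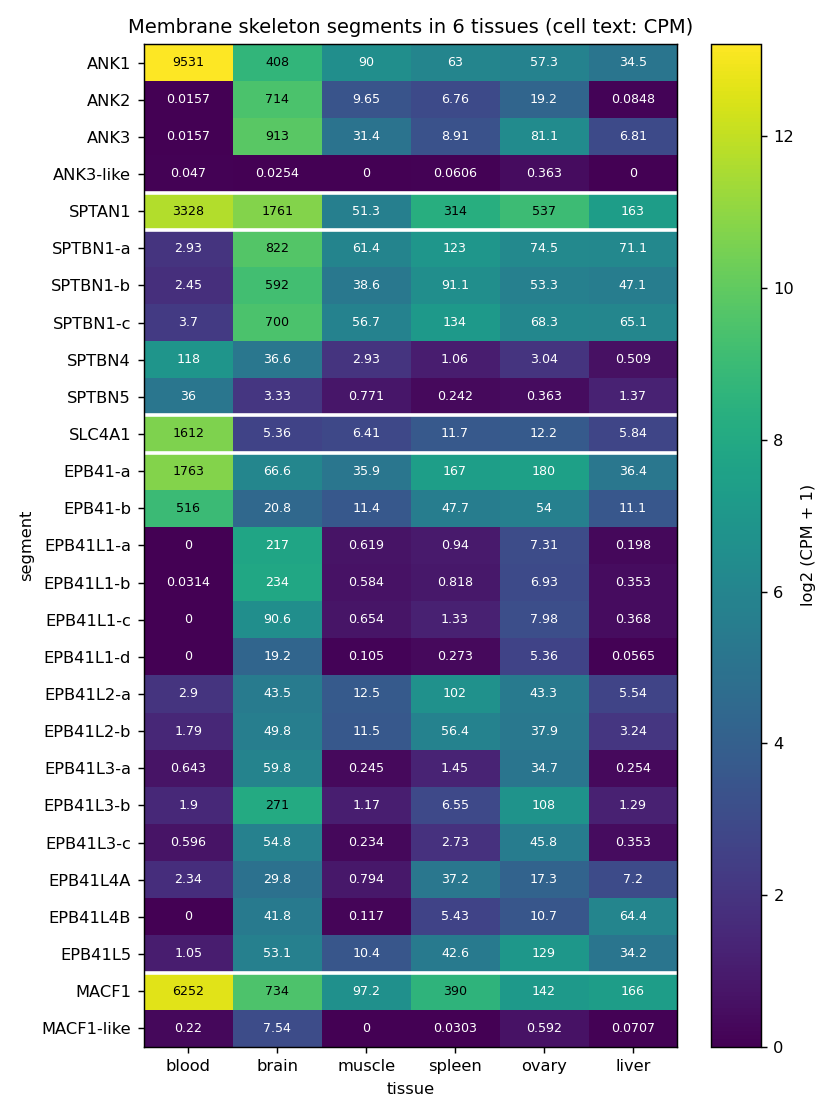
Levels of 27 segments (rows, grouped by family and divided by white lines) in the 6 tissues (columns). Colour is log2 of CPM plus 1 and the text in each cell is the CPM. ANK1, SPTAN1, SLC4A1, EPB41 and MACF1 are brightest in blood, while ANK2, ANK3, SPTBN1 and EPB41L1 are bright in brain and near 0 or a few CPM in blood.

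The ankyrins divided between blood and brain. ANK1, the ankyrin named for the red cell, had 9603 CPM (NextSeq) and 8321 CPM (MiSeq) in blood. In brain the libraries gave 407 and 432 CPM, in muscle 88.7 and 117 CPM, in spleen 62.3 and 74.1 CPM, in ovary 57.2 and 59.8 CPM and in liver 34.3 and 38.2 CPM, each in the order NextSeq and MiSeq. Blood stood 23.3-fold above brain, the next tissue, and no tissue overlapped its neighbour in this order. The summed level in blood was 9531 CPM (95% interval 9497 to 9565), and ANK1 was the segment with rank 4 of all segments in blood, at 0.953% of the counts. Counts are not divided by segment length, so this is not a rank of transcript numbers.

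ANK2 and ANK3, which in mammals serve the heart and the axon among other places, had the reverse pattern. ANK3 had 916 and 848 CPM in the brain libraries, 81.2 and 79.9 CPM in ovary, 31.5 and 30.2 CPM in muscle, 8.91 and 8.90 CPM in spleen and 6.94 and 4.49 CPM in liver. In blood it had 0.5 counts in all, or 0.0157 CPM with an upper limit of 0.147 CPM. ANK2 had 712 and 750 CPM in brain, 19.0 and 23.0 CPM in ovary, 9.34 and 16.0 CPM in muscle, 6.72 and 7.41 CPM in spleen and 0.0848 CPM over both libraries in liver. It too had 0.5 counts in blood, where ANK1 had 303882. Brain exceeded ovary, the next tissue, by 11.1-fold for ANK3 and 35.4-fold for ANK2 with 1 CPM added.

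A share within the family does not depend on how tissues are scaled to each other. ANK1 held 303882 of the 303884.5 ankyrin counts in blood, 20.1% of those in brain (95% interval 19.7% to 20.5%, exact binomial) and 68.7% of those in muscle (67.4% to 69.9%). ANK3 held 44.9% in brain and 24.0% in muscle, and ANK2 35.1% in brain and 7.36% in muscle. In ovary ANK3 had the share most like that of brain, 51.4%, whereas spleen and liver had ANK1 at 80.0% and 83.3%. Both platforms gave ANK1 a share of 20.0% and 21.3% in brain and of 68.5% and 71.7% in muscle, so the difference of these tissues was larger than that between platforms. Muscle was thus unlike both blood and brain in its ankyrins: ANK1 took most of the counts, and ANK2 and ANK3 were both present. Spleen had the same order of shares, with ANK3 at 11.3% and ANK2 at 8.58%. Traces of blood can enter these shares, and their part was not tested. In muscle ANK1 had 0.944% of its blood level, hemoglobin alpha-D 0.454%, hemoglobin beta 0.0816% and the erythroid TSPO2 0.182%. In spleen ANK1 had 0.661%, and these 3 genes had 0.424%, 0.144% and 0.631% in the same order. In liver ANK1 had 0.362%, and they had 0.190%, 0.139% and 0.441%.

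**Figure D2:**
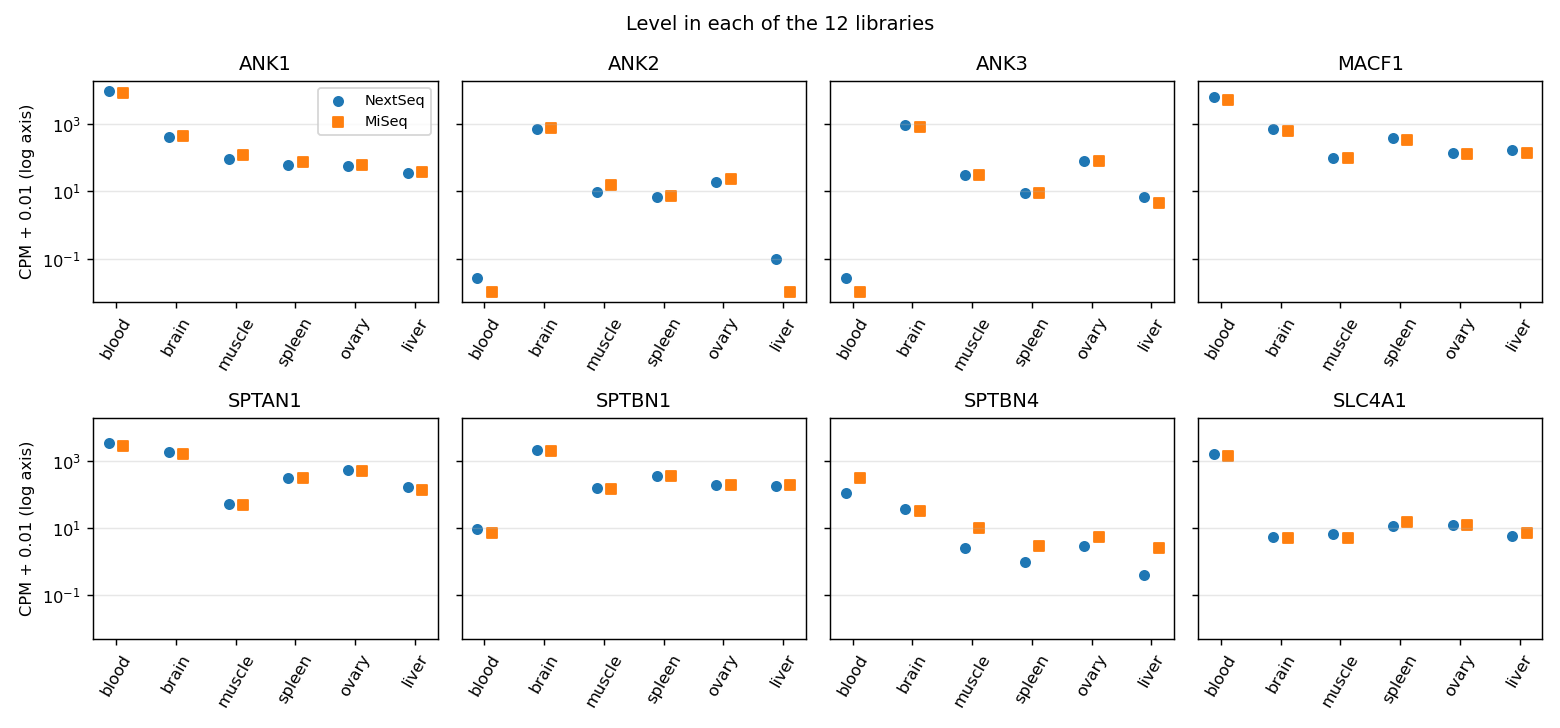
Levels of 8 proteins (segments of 1 name summed) in each of the 12 libraries, as CPM plus 0.01 on a log axis, with NextSeq as circles and MiSeq as squares. ANK1, MACF1 and SLC4A1 are highest in both blood libraries, and ANK2 and ANK3 drop to 0 or 0.0166 CPM there. The platforms part for SPTBN4 (107 and 301 CPM in blood) and for ANK2 in liver (0.0893 and 0 CPM).

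The non-erythrocytic alpha spectrin and the beta spectrins matched here did not all follow one another across tissues. Erythrocytic beta spectrin was not analysed here, so the beta chain that goes with alpha spectrin in blood was not tested. Alpha spectrin of the non-erythrocytic type (SPTAN1), the partner of the beta chains outside mammalian red cells, had 3359 and 2807 CPM in the blood libraries, 1770 and 1592 CPM in brain and 51.5 and 47.6 CPM in muscle. Spleen had 314 and 311 CPM, ovary 540 and 492 CPM and liver 165 and 136 CPM. No tissue overlapped its neighbour, and blood exceeded brain by 1.89-fold, short of 2-fold. SPTAN1 had the lowest τ of the 28 segments, 0.296 (τ, the index of tissue specificity, is 0 for an even gene and near 1 for a gene of a single tissue). It was the only one under 0.3, against a background of 23.7% of all segments. This τ uses logarithms of levels, so a low value does not mean equal levels: SPTAN1 had 3328 CPM in blood and 51.3 CPM in muscle.

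Its usual partner SPTBN1 (beta spectrin of the non-erythrocytic type 1) was low where SPTAN1 was highest. The 3 segments of SPTBN1 had 592 to 822 CPM in brain, 38.6 to 61.4 CPM in muscle and 2.45 to 3.70 CPM in blood. They had 91.1 to 134 CPM in spleen, 53.3 to 74.5 CPM in ovary and 47.1 to 71.1 CPM in liver, and ovary and liver overlapped for segments a and c. Summed, SPTBN1 had 9.19 and 7.22 CPM in the blood libraries, against 2125 and 1913 CPM in brain and 157 and 150 CPM in muscle. It held 5.55% of the beta spectrin counts of blood (95% interval 4.94% to 6.20%, with 6.02% by NextSeq and 2.10% by MiSeq), 96.5% of those of brain and 95.3% of those of muscle. The 7 beta segments matched by the phrases are all of the non-erythrocytic type. Erythrocytic beta spectrin was not analysed here, so these are shares among the 7 and not of all beta spectrin of a tissue.

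Of those 7, the beta spectrins with their highest level in blood were SPTBN4 and SPTBN5. SPTBN4, in mammals a beta chain of axon initial segments and nodes, was matched by a partial protein. It had 107 CPM in the NextSeq and 301 CPM in the MiSeq library of blood, 36.8 and 32.6 CPM in brain and 2.57 and 10.2 CPM in muscle. Spleen, ovary and liver had at most 5.58 CPM in a library, and each of ovary, muscle, spleen and liver overlapped the next in that order. The MiSeq level of blood was 2.81-fold the NextSeq level, a gap passed by 0.844% of the segments with at least 100 NextSeq and 10 MiSeq counts in blood. Blood nonetheless exceeded brain on either platform. SPTBN4 held 72.3% of the beta spectrin counts of blood (70.3% by NextSeq, 87.6% by MiSeq), against 1.67% in brain and 1.78% in muscle (1.56% by NextSeq, 6.31% by MiSeq).

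SPTBN5, a large and little studied beta chain, had 36.0 and 35.5 CPM in blood, 3.37 and 2.47 CPM in brain and 0.772 and 0.748 CPM in muscle, with 0.242 to 1.37 CPM in spleen, ovary and liver. It held 22.0% of the beta spectrin counts of blood (23.6% by NextSeq, 10.3% by MiSeq), 0.152% of those of brain and 0.469% of those of muscle.

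**Figure D3:**
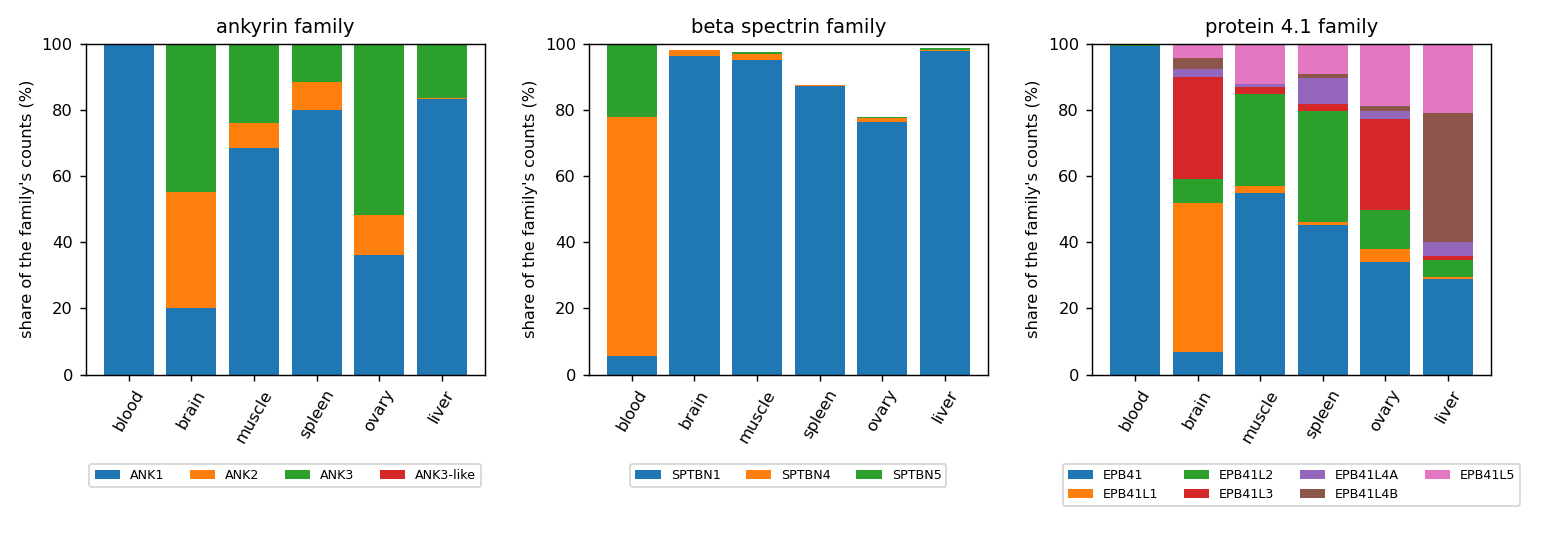
Share of the counts of the ankyrin, beta spectrin and protein 4.1 families (panels) held by each paralog (colours, stacked) in the 6 tissues. Bars end below 100% where counts of the family are not reported here. In blood ANK1 and EPB41 fill their bars (99.5% for EPB41) and SPTBN4 and SPTBN5 most of the beta spectrin bar, while SPTBN1 fills 76.5% to 97.9% of that bar in the other tissues.

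Band 3, which carries out the anion exchange of the red cell and binds ANK1, had 1627 and 1354 CPM in the blood libraries. It had 5.38 and 4.95 CPM in brain, 6.48 and 4.99 CPM in muscle, 11.5 and 14.8 CPM in spleen, 12.2 and 12.3 CPM in ovary and 5.78 and 7.02 CPM in liver. Ovary overlapped spleen, and muscle overlapped liver. Blood led by 122-fold with 1 CPM added, more than for any of the other 28 segments, and τ was 0.722. Anion exchange protein 2, a relative used by many epithelia whose segment has the same locus number, was lowest in muscle at 0.841 CPM and had 6.92 CPM in blood and 33.0 CPM in liver. The third of the exchangers, anion exchange protein 3, had 236 CPM in brain and 1.19 CPM in blood.

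Protein 4.1, which strengthens the joint of spectrin and actin, was high in blood for both of its segments. Segment a had 1766 and 1713 CPM in the blood libraries, 64.8 and 99.4 CPM in brain and 35.5 and 44.2 CPM in muscle. Its next highest tissues were ovary (179 and 198 CPM) and spleen (166 and 175 CPM), which did not overlap, and liver (36.3 and 38.2 CPM) overlapped muscle. Segment b had 516 CPM in blood, 54.0 CPM in ovary, 47.7 CPM in spleen, 20.8 CPM in brain, 11.4 CPM in muscle and 11.1 CPM in liver, with ovary and spleen overlapping. The counts of segment b were 0.286 to 0.318 of those of segment a in all 6 tissues, so the 2 segments kept nearly the same proportion.

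The band 4.1-like paralogs were low in blood without exception, at 0 to 2.90 CPM. EPB41L1, the relative named 4.1N for neurons in mammals, had 217, 234, 90.6 and 19.2 CPM in brain for segments a to d. It had 5.36 to 7.98 CPM in ovary and at most 1.33 CPM in spleen, muscle and liver. Segments a, c and d had no count in blood, which allows up to 0.0941 CPM by a limit of 3 counts (0.116 CPM by the Poisson interval). By the limit of 3 counts, segment a was at least 2309-fold higher in brain. Segments a and b had the highest τ of the set, 0.823 and 0.827, and were the only 2 above 0.8, against a background of 5.4%. EPB41L3, known as 4.1B in mammals, was shared by brain and ovary: its segment b had 268 and 338 CPM in the brain libraries and 107 and 116 CPM in ovary. Segments a and c had 59.8 and 54.8 CPM in brain and 34.7 and 45.8 CPM in ovary, and brain and ovary overlapped for segment c. In blood, muscle and liver no segment of EPB41L3 passed 1.90 CPM.

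Spleen led segment a of EPB41L2, known as 4.1G, with 101 and 120 CPM, against 42.8 and 55.9 CPM in brain and 12.4 and 15.2 CPM in muscle. Segment b had 56.4 CPM in spleen and 49.8 CPM in brain, which overlapped. Under TMM scaling segment a kept its highest level in spleen without a 2-fold lead, and segment b was highest in muscle. EPB41L5, a regulator of epithelial shape in mammals, was led by ovary with 130 and 110 CPM, against 51.9 and 75.2 CPM in brain and 10.5 and 8.73 CPM in muscle. It had no 2-fold lead in the MiSeq libraries alone, nor under TMM scaling, where liver was highest. EPB41L4B was highest in liver (64.3 and 67.4 CPM) and then brain (41.9 and 40.1 CPM), with no count in blood and 0.117 CPM in muscle, and liver led it by 2.30 on the log2 scale under TMM scaling. EPB41L4A was highest in spleen (36.5 and 47.4 CPM) and then brain (30.0 and 27.2 CPM), with 0.794 CPM in muscle. EPB41 held 99.5% of the family's counts in blood, 6.98% in brain (95% interval 6.66% to 7.30%) and 54.9% in muscle (53.2% to 56.5%). In brain EPB41L1 held 44.8% and EPB41L3 30.8%, in muscle EPB41L2 27.8% and EPB41L5 12.1%, and in liver EPB41L4B 39.1%.

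MACF1 had 6311 CPM (NextSeq) and 5261 CPM (MiSeq) in blood. In brain the libraries gave 740 and 626 CPM, in spleen 394 and 336 CPM, in liver 167 and 141 CPM, in ovary 143 and 128 CPM and in muscle 97.0 and 99.5 CPM. Liver and ovary overlapped, and no other neighbours did. Blood led brain by 8.51-fold, and MACF1 had rank 5 of all segments in blood by counts not divided by length. Under TMM scaling the order below brain differed, with 292 CPM in liver, 267 CPM in muscle, 190 CPM in spleen and 63.8 CPM in ovary. The log2 ratio of brain over muscle was 0.547 under TMM, against 2.90 by library totals. A second segment, named MACF1-like, had 7.42 and 9.89 CPM in brain and at most 2.23 CPM in any other library, without a count in muscle. A segment named KIAA0754 homolog, which has the same locus number as MACF1 and was singled out after its values were seen, had 43.8 CPM in brain and 14.4 CPM in blood. Its counts were 5.97% of those of MACF1 in brain, 10.8% in ovary and 0.231% in blood.

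The other plakins did not share one pattern. Plectin, which joins intermediate filaments to other structures, was led by blood (1427 CPM, against 486 CPM in brain and 120 CPM in muscle). Dystonin, the closest relative of MACF1, had 0.298 CPM in blood, 354 CPM in brain and 114 CPM in muscle. Desmoplakin and periplakin, proteins of cell junctions, were led by ovary (176 and 177 CPM), and envoplakin had 43.2 CPM in brain and 24.9 CPM in blood.

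The pairs of tissues put these levels side by side. For blood over brain, 7 of 28 segments were at least 2-fold higher in blood (background 11%) and 20 at least 2-fold lower in blood (background 65.5%). The remaining one was SPTAN1. Under TMM scaling SPTAN1 joined the segments higher in blood, which made 8, or 28.6%, near the background of 28.9%. The 20 lower ones stayed lower, against a background of 45.6%. Higher in blood by library totals were ANK1, MACF1, SLC4A1, both EPB41 segments, SPTBN4 and SPTBN5, with log2 ratios from 1.67 (SPTBN4) to 7.99 (SLC4A1). ANK1 and MACF1 are those around which the set was put together. The median log2 ratio was -4.31 over the 28 segments and -1.89 over all 13434 segments tested.

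For brain over muscle, 25 of 28 segments were at least 2-fold higher in brain (background 76%) and 0 at least 2-fold lower (background 5.75%). The remaining ones were SLC4A1 and both segments of EPB41. The median log2 ratio was 3.66 over the 28 segments and 2.04 over all segments. This pair depends on the scaling: the TMM factors moved every log2 ratio of brain over muscle by -2.37 before the 1 CPM was added, of blood over brain by 1.73 and of blood over muscle by -0.635. Under TMM 17 segments were higher in brain (background 33%) and 3 lower (background 25.4%), namely SLC4A1 and both EPB41 segments. ANK1 then stood at -0.19 on the log2 scale for brain over muscle, against 2.17 by library totals, and SPTBN5 at -0.17 against 1.29. ANK2 and ANK3 stayed higher in brain, at 3.79 and 2.48 under TMM.

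For blood over muscle, 8 of 20 segments were at least 2-fold higher in blood (background 39.4%) and 10 at least 2-fold lower (background 31.8%). The higher ones were SPTAN1 and the 7 that were also higher than in brain, with log2 ratios of 4.38 to 7.77. The lower ones were mainly segments of ANK2, ANK3, SPTBN1, EPB41L2 and EPB41L5. Under TMM scaling 8 of 25 were higher in blood (background 31.7%) and 13 lower (background 40.5%). The share of segments higher in blood was near the background by both scalings.

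**Figure D4:**
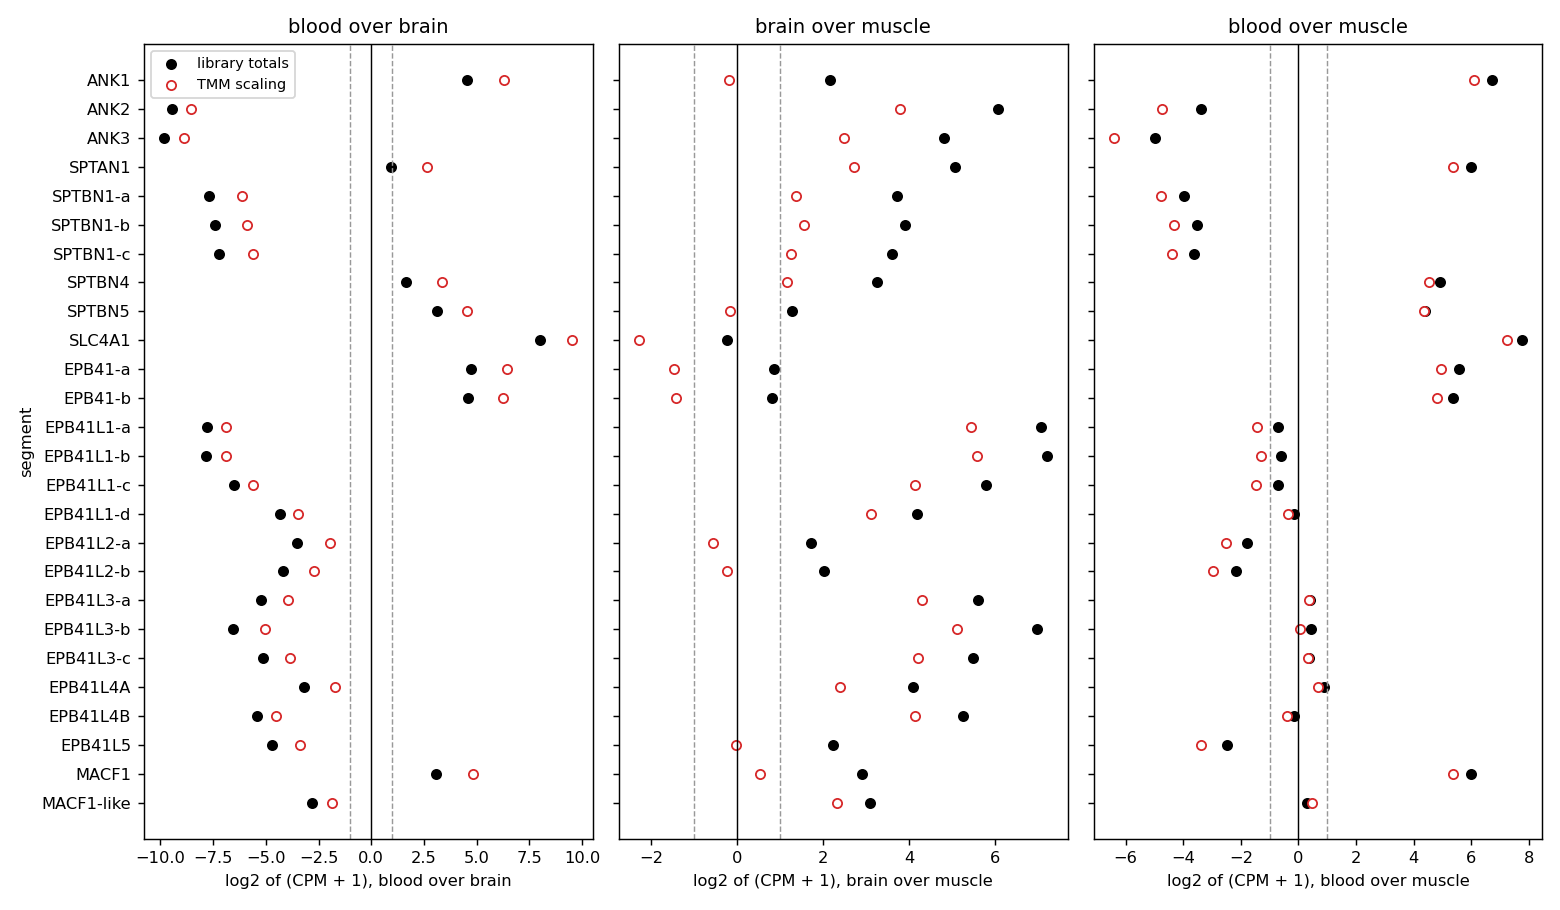
Log2 ratio of CPM plus 1 for 26 segments (rows) in blood over brain, brain over muscle and blood over muscle (panels), by library totals (filled) and after TMM scaling (open), with dashed lines at 2-fold. In the first and last panel every segment shown past 2-fold keeps its side, while in the middle panel 5 segments past 2-fold, ANK1 among them, cross 0.

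Traces of blood in the other tissues were set beside the members. Hemoglobin beta and hemoglobin alpha-D had 0.0816% to 0.457% of their blood level in the other 5 tissues, and the erythroid TSPO2 had 0.182% to 0.631%. SLC4A1 had 0.333% to 0.759%, and the red-cell Rh-associated glycoprotein 0.288% to 1.10%. ANK1 had 0.362% to 0.661% of its blood level in liver, ovary and spleen, 0.944% in muscle and 4.28% in brain. MACF1 had 1.55% to 11.7%, EPB41 segment a 2.04% to 10.2%, and SPTAN1 1.54% to 52.9%. In brain ANK1, MACF1, SPTAN1, SPTBN4 and EPB41 were all at 3.78% or more, and the globins at 0.0895% and 0.188%. Hemogen, another erythroid gene, had 10.4% of its blood level in ovary. The transcription factor GATA1 was not a gene of blood alone (20.2 CPM in blood, 46.3 CPM in spleen and 27.2 CPM in brain). Its platforms differed widely, with 15.2 CPM (NextSeq) and 104 CPM (MiSeq) in blood. Spleen had 32.9 and 253 CPM and brain 21.6 and 132 CPM in that order. Under TMM scaling GATA1 was highest in blood, without a 2-fold lead. These percentages are by library totals, and a change of scaling moves all points of a tissue together. The part of traces of blood in these levels was not tested.

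**Figure D5:**
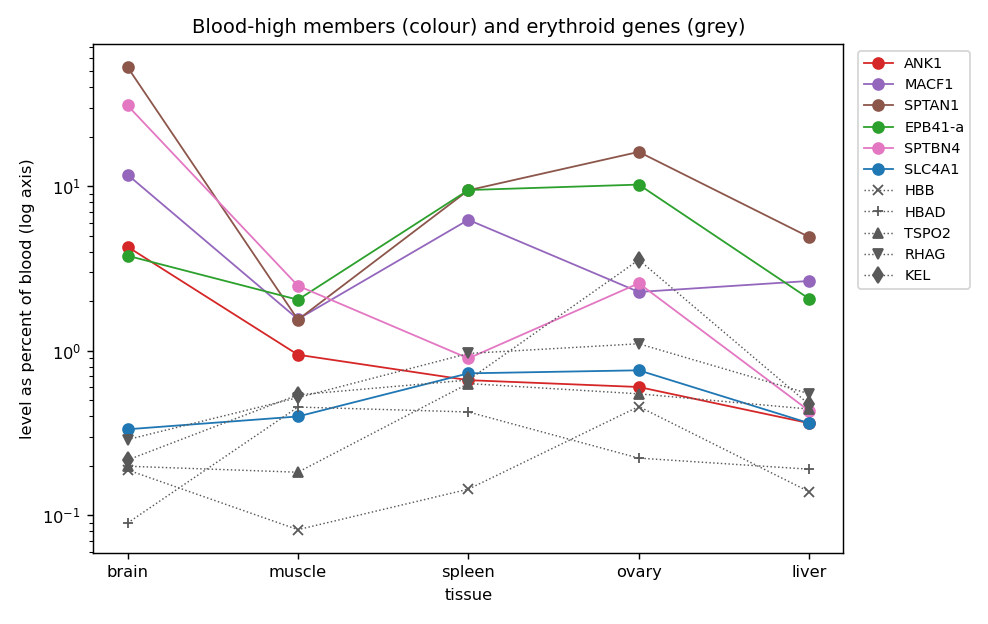
Level in brain, muscle, spleen, ovary and liver as a percentage of the level in blood (log axis), for 6 members (colours) and 5 genes of red cells (grey). SLC4A1, at 0.333% to 0.759%, runs among the grey genes in muscle, spleen, ovary and liver and lies just above them in brain. ANK1 runs among them in spleen, ovary and liver, while SPTAN1, MACF1 and EPB41 lie above the globins throughout.

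Partners of the skeleton in mammalian red cells were listed as 18 proteins, of which 17 were matched. Blood led 5 of the 17 (background 3.91%), and 7 under TMM scaling (background 12.5%). The 5 were the band 4.2 protein (1146 CPM), the Rh-associated glycoprotein (1006 CPM), Kell (787 CPM), beta-adducin (350 CPM) and dematin (188 CPM). For beta-adducin and dematin, which cap and bundle actin, brain came next at 112 and 69.7 CPM. Gamma-adducin was led by brain (390 CPM, against 8.64 CPM in blood), and alpha-adducin had 159 CPM in blood and 152 CPM in brain. Partners of the human red cell that were near 0 in swallow blood were glycophorin-C (no count), tropomodulin-1 (0.0627 CPM, against 202 CPM in muscle), aquaporin-1 (0.110 CPM), glucose transporter 1 (0.815 CPM), the palmitoylated protein p55 (1.10 CPM, against 217 CPM in muscle) and stomatin (1.73 CPM, against 166 CPM in spleen). The list as a whole had a median log2 ratio of blood over brain of -0.48, against -1.89 over all segments. Tropomodulin-4, outside the list and singled out after its values were seen, had 122 CPM in blood, 41.2 CPM in muscle and 4.37 CPM in brain.

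Listed membrane proteins of the axon, some of them held there by ankyrins, were led by brain in 8 of 8 matched cases out of 12 listed, against a background of 13.2%. The sodium channels SCN1A, SCN2A and SCN8A had 1015, 1078 and 587 CPM in brain, and 2.93, 0.831 and 3.73 CPM in blood. The adhesion proteins contactin-1, CASPR and neurofascin had 928, 259 and 116 CPM in brain, and the potassium channel KCNQ3 142 CPM. In muscle, SCN8A (32.7 CPM) and contactin-1 (16.1 CPM) passed 1 CPM and the other 6 did not.

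The muscle list gave 1 of 12 matched proteins led by muscle (background 2.18%), the sodium channel SCN4A (49.7 CPM, against at most 3.34 CPM elsewhere), and 6 under TMM scaling (background 7.2%). Dystrophin, which ties actin to the surface membrane, had 201 CPM in muscle, 383 CPM in ovary and 266 CPM in brain. Desmin, the intermediate filament protein of muscle, had 274 CPM in muscle and 175 CPM in spleen. Brain led the sodium/calcium exchanger 1 (116 CPM), and ovary led dystroglycan (251 CPM) and a sodium channel named type 5-like (97.1 CPM, at most 0.0508 CPM elsewhere). Among other proteins with spectrin repeats, alpha-actinin-2 of the Z disc had 2382 CPM in muscle, nesprin-1 1278 CPM in brain and alpha-actinin-1 561 CPM in spleen. Of the relatives of protein 4.1 that link actin to the membrane, ezrin (208 CPM) and moesin (699 CPM) were led by spleen and merlin (150 CPM) by ovary, and radixin had 215 CPM in blood and 214 CPM in spleen. Dystroglycan, alpha-actinin-1 and merlin had no 2-fold lead under TMM scaling.

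Segments with profiles most like those of ANK1 and MACF1 were found by the Euclidean distance between log2 levels, centred on their mean over the 12 libraries, among 12358 segments that reached 10 CPM in some tissue. For ANK1 these were forkhead box protein O3 (distance 2.76), nuclear receptor-binding protein 2 (2.84), carbonic anhydrase 2 (2.95), a second segment of dematin (3.37) and a HEXIM1-like protein (3.38). Carbonic anhydrase 2, which hydrates carbon dioxide, had 11524 CPM in blood, 133 CPM in brain and 119 CPM in muscle. For MACF1 the nearest were 2 segments of the catalytic subunit alpha of a phosphatidylinositol 3-kinase (1.30 and 1.57), an uncharacterized protein (1.50), the same HEXIM1-like protein (1.62) and the chaperone regulator BAG5 (1.80). The kinase segments had 547 and 635 CPM in blood and 41.6 and 47.0 CPM in brain.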

How the data were processed

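The authors trimmed reads with Trimmomatic 0.36 and mapped them to protein-coding segments of their own assembly. Their methods name bwa mem for this, the processing notes STAR 2.5.2a. The deposited table gives expected counts, in steps of 0.5 and not normalized, from paired platforms per pool. Its other values, written with a comma inside large numbers, were read as the same expected counts deposited by the authors. Reads of paralogs and of segments of 1 locus may have been split by the mapping.

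Counts of both libraries were summed and scaled to CPM with Python 3.11.15, numpy 2.4.6, pandas 2.3.3 and scipy 1.17.1. Figures used matplotlib 3.10.9. Totals are given in the report. A count of 1 equals 0.0245 to 0.0646 CPM in a NextSeq and 0.499 to 0.989 CPM in a MiSeq library. A count of 0 allows 3 counts. Intervals at 95% cover counting error only, since PCR copies are not independent molecules. A tissue led a segment at 2-fold on CPM plus 1. Pairs used segments with 1 CPM in either tissue. τ was the sum of 1 minus ln level over ln highest level, divided by 5, where a level below 2 CPM counted as 2. TMM factors came from edgeR 4.0.16 (R 4.3.3) on summed counts rounded to whole numbers: 0.565 in blood, 1.88 in brain, 0.364 in muscle, 2.05 in spleen, 2.23 in ovary and 0.567 in liver. Tissues overlap where the ranges of their 2 libraries do. Calls were tested on simulated data with Poisson counting error only, which hold no difference between pools or platforms.

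The members and lists were chosen with earlier results of these data known. How list names match protein names was set after the table was seen, and for a name with several segments the one with most counts was used. Described were members with at least 10 CPM in a tissue, list proteins led by a tissue, and the 5 nearest profiles. Other list values were added to show where a list's members were high or low. Some members and listed proteins enter the counts but are not reported here by name. Listed proteins without a match were not analysed here, and no sequences were used. Alternatives were each platform alone, TMM, totals without the 50 most abundant segments of a tissue, segments of 1 name summed, a pseudocount of 5 CPM, 4-fold, a minimum of 10 CPM or none, and a floor of 1 CPM for τ.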

Additional observations from a re-analysis of the deposited data

How the results depend on the processing

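With 1 pool per tissue, the alternatives speak for the processing and not for other birds. Blood led 6 to 8 and brain 9 to 11 segments under all alternatives that kept segments apart. With segments of 1 name summed, 13 proteins were led by a tissue, 6 of them by brain, against 20 and 11 segments, 11 were at least 2-fold lower in blood than in brain, against 20, and 16 higher in brain than in muscle, against 25, because fewer items were counted. The count lower in brain than in muscle, 0 by library totals, was 3 under TMM and 1 without the 50 most abundant segments. By log2 of brain over muscle, TMM turned ANK1 (-0.19), SPTBN5 (-0.17), EPB41L2-a (-0.56), EPB41L2-b (-0.24) and EPB41L5 (-0.020). The highest tissue of EPB41L2-b and EPB41L5 also differed under TMM, and that of EPB41L3-c in the MiSeq libraries.

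Each platform alone gave counts within 1.5 times of those above. Its shares of the ankyrin counts were 99.999% to 100% in blood, 19.99% to 21.3% in brain and 68.5% to 71.7% in muscle for ANK1, 0% to 0.000173% in blood, 35.0% to 36.9% in brain and 7.21% to 9.80% in muscle for ANK2, and 0% to 0.000173% in blood, 41.8% to 45.0% in brain and 18.5% to 24.3% in muscle for ANK3. Of the beta spectrin counts SPTBN1 held 2.10% to 6.02% in blood, 96.5% to 96.7% in brain and 92.3% to 95.4% in muscle, SPTBN4 70.3% to 87.6%, 1.65% to 1.67% and 1.56% to 6.31% in these tissues, and SPTBN5 10.3% to 23.6%, 0.125% to 0.153% and 0.462% to 0.469%. Of the protein 4.1 counts EPB41 held 99.5% (99.509% to 99.513%) in blood, 6.87% to 8.77% in brain and 54.6% to 58.9% in muscle. No paired analysis was possible because the 2 libraries of a tissue are 1 pool and no result comes from a test.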
